A study of Mus musculus with 10 samples.

Results

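The genes for potassium channels and their accessory subunits, taken as every gene whose symbol starts with Kcn, were described here in mouse brain. Probes were picked from the non-control probes of the array by their gene symbol. The symbol was found through the RefSeq accession of the probe only, and a probe whose accession had no match was left unnamed. The rule gave 121 probes for 87 genes, of 18539 genes with a named probe on the array. Another 11 of the 98 Kcn symbols in the RefSeq gene table had no probe matched in this way. The 87 genes were 28 voltage-gated alpha subunits (Kcna, Kcnb, Kcnc, Kcnd, Kcnh and Kcnq), 9 silent modifiers of voltage-gated channels (Kcnf, Kcng, Kcns and Kcnv), 16 accessory subunits (Kcnab, Kcne, Kcnip and Kcnmb), 8 calcium- or sodium-activated channels (Kcnma, Kcnn, Kcnt and Kcnu), 14 inward rectifiers (Kcnj), 10 two-pore channels (Kcnk) and 2 non-coding RNAs named after such genes.

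The study fed male C57BL/6J mice either a standard laboratory diet (SD) or a diet enriched in fish oil (FD). Feeding ran from the age of 3 weeks for about 20 weeks, until the mice were 5 months old. The FD held more fat and more n-3 polyunsaturated fatty acids than the SD, and less n-6. RNA of the left hemibrain of each of 10 mice was labelled with Cy-5 and hybridised to a 2-colour oligonucleotide array together with a common RNA labelled with Cy-3, and each array is named here by its animal. The labels gave every Cy-5 sample as an FD-fed mouse and the Cy-3 RNA as pooled hemibrain of SD-fed mice, while their description field called all 10 arrays controls and the methods named a commercial reference RNA in Cy-3 and arrays from both diets. Because these sources did not settle the diet of an array, FD and SD were not compared, and all 10 arrays formed 1 group in which hemibrain (Cy-5) was set against the common RNA (Cy-3) of the same spots. All arrays had the same dye orientation, so that a dye effect of a probe could not be told apart from a difference between the RNAs.

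The data went against the label of the Cy-3 RNA as hemibrain. All 8 neuron markers were higher in Cy-5, with mean log2 ratios from 3.31 (Tubb3) to 8.62 (Gad1), as were all 6 oligodendrocyte markers, 5 of 6 astrocyte, 3 of 5 microglia, 3 of 4 endothelial, 2 of 4 choroid plexus and 2 of 2 blood markers. All 6 proliferation genes were lower, from -2.98 (Cdk1) to -7.46 (Ccnb1), and so was 1 choroid plexus marker, Aqp1 (-2.70). The Cy-3 RNA is therefore called the common RNA throughout, and a high ratio can stand for a high level in hemibrain, a low level in the common RNA, or both. These markers differed between the 2 RNAs beside the ratios given below, and their part in the results was not tested. In a homogenised hemibrain, the number of cells of a type and the RNA per cell cannot be told apart. A spot counted as detected in a dye where the scanner software flagged its signal as well above the local background. The array of animal C10-434 stood apart, with 49.8% of its probes detected in Cy-5, where the remaining 9 arrays had 68.2% to 76.9%.

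Potassium channels let potassium ions leave, or in some families enter, the cell, and so set the resting potential and end the action potential. Voltage-gated alpha subunits form the pore as tetramers, silent modifiers and accessory subunits change where and how these pores work, calcium- and sodium-activated channels respond to ions that enter during firing, inward rectifiers hold the resting potential and serve G-protein and ATP signalling, and two-pore channels carry the background leak. In brain, neurons use many of these families side by side, and astrocytes use inward rectifiers to clear potassium from around active neurons. Channels of the Kcnk2, Kcnk4 and Kcnk10 group are known to open in response to polyunsaturated fatty acids.

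Of the 87 genes, 63 had a RefSeq promoter entry (build GRCm38.p6, with 250 bases before and 50 after the transcript start), in 88 windows. The windows of 4 members are shown because results below turn on them. On their brightest probes, Kcnd2 and Kcne1l were detected in hemibrain on every array and not in the common RNA on any array. Kcnn4 and Kcnk5 were lower in hemibrain. The windows lie at chr6:21215096-21215395 on the plus strand (Kcnd2), chrX:142306149-142306448 on the minus strand (Kcne1l), chr7:24370013-24370312 on the plus strand (Kcnn4) and chr14:20181733-20182032 on the minus strand (Kcnk5). Capitals mark the GC box, GGGCGG or its reverse complement CCGCCC.
Kcnd2: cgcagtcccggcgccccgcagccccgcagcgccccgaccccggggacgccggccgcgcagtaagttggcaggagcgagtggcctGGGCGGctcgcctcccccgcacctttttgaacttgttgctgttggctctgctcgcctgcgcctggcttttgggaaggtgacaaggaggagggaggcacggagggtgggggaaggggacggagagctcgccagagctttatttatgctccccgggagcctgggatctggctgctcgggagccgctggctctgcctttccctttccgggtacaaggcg
Kcne1l: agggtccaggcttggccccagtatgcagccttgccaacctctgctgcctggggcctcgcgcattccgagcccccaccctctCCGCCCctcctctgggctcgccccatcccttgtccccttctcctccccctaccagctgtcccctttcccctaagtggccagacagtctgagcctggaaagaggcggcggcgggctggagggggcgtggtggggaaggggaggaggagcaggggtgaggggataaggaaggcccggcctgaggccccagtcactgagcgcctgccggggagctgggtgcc
Kcnn4: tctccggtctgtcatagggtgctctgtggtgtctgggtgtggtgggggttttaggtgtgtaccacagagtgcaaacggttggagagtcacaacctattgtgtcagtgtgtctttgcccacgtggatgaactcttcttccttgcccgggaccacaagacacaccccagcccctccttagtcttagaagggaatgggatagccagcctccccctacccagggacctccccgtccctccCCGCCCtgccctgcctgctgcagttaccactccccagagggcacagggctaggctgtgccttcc
Kcnk5: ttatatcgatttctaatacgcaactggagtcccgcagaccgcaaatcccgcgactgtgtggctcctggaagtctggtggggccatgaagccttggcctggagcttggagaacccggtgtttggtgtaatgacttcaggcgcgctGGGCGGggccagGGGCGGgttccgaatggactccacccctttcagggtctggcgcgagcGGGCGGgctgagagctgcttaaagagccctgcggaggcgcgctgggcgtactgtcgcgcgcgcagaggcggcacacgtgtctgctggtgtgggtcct
Each of these 4 windows held at least 1 GC box, and that of Kcnk5 held 3. The window of Kcna5, a gene with the same detection as Kcnd2 and Kcne1l, held 0. That of Kcnk7, also lower in hemibrain, held 1. Read on both strands, the GC box occurred in 44 of the 88 Kcn windows, against 35.7% of all 32851 windows, and the TATA box TATAAA in 4 of them (4.55%), against 13.6%. The right part of the RE1 element, the site of the neuronal repressor REST, was searched as GGACAGC and occurred in 13.6% of Kcn windows against 6.56% of all, and the left part, TCAGCACC, in 1.14% against 1.65%. No motif is contained in another, several windows belong to the same gene, and a match of letters shows no binding. GC boxes were found in 49.3% of the 73 windows of genes that were higher in hemibrain and in all 3 windows of the genes that were lower.

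Potassium channel genes were mostly higher in hemibrain than in the common RNA. A gene was represented by its brightest probe, the ratio is log2 of the Cy-5 over the Cy-3 signal after a loess correction within each array, and a gene was called when limma gave a Benjamini-Hochberg adjusted p under 0.05 over all probes and the mean ratio was at least 1 from 0 (2-fold). By this rule 65 of the 87 genes (74.7%) were higher, against 25.5% of all 18539 genes, 3 (3.45%) were lower, against 19.8%, and 19 were not called. The median of their mean log2 ratios was 3.01, against 0.13 over all genes. Of the 85 genes with a value on all 10 arrays, 51 were at least 2-fold higher on every array, against 17.2% of all such genes. The adjusted p of the 65 genes was at most 0.000854 (Kcnh7). Under a normexp background correction with an offset of 50, which shrinks ratios of dim spots, 42 genes were higher and 1 was lower. The share of all genes was not counted under normexp, and the shares above belong to the main setting.

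How firmly a ratio is known depended on the signal. In Cy-5, 56 of the 87 genes (64.4%) were detected on all 10 arrays, against 65.6% of all genes, 28 on some arrays, and 3 on none (Kcnj5, Kcnj15 and Kcnv2), against 9.78%. In Cy-3, 34 genes were detected on all arrays and 17 on none. The share of all genes was not counted for Cy-3, so these counts are a description only. Among the 28 genes detected in both dyes on every array, 24 were higher, none was lower and 4 were not called (Kcnk13, Kcnk6, Kcnq1 and Kcnq1ot1), against 27.8% higher and 19.5% lower of 11372 such genes. The 24 ranged from 2.15-fold (Kcnh2) to 180.2-fold (Kcna1). For 12 genes that were higher and not detected in Cy-3 on any array, the fitted ratio rests on a substitute value for the dim dye. For these a lower bound on the fold is given instead, where that bound exceeds 1. It sets the mean hemibrain signal against the lowest detected Cy-3 signal of each array, or the probe's own Cy-3 signal where higher. Every bound given here holds for the main processing only. Under normexp the log2 ratios lay below such bounds, for example 5.63 for Kcnd2 and 1.30 for Kcnh5.

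**Figure D1:**
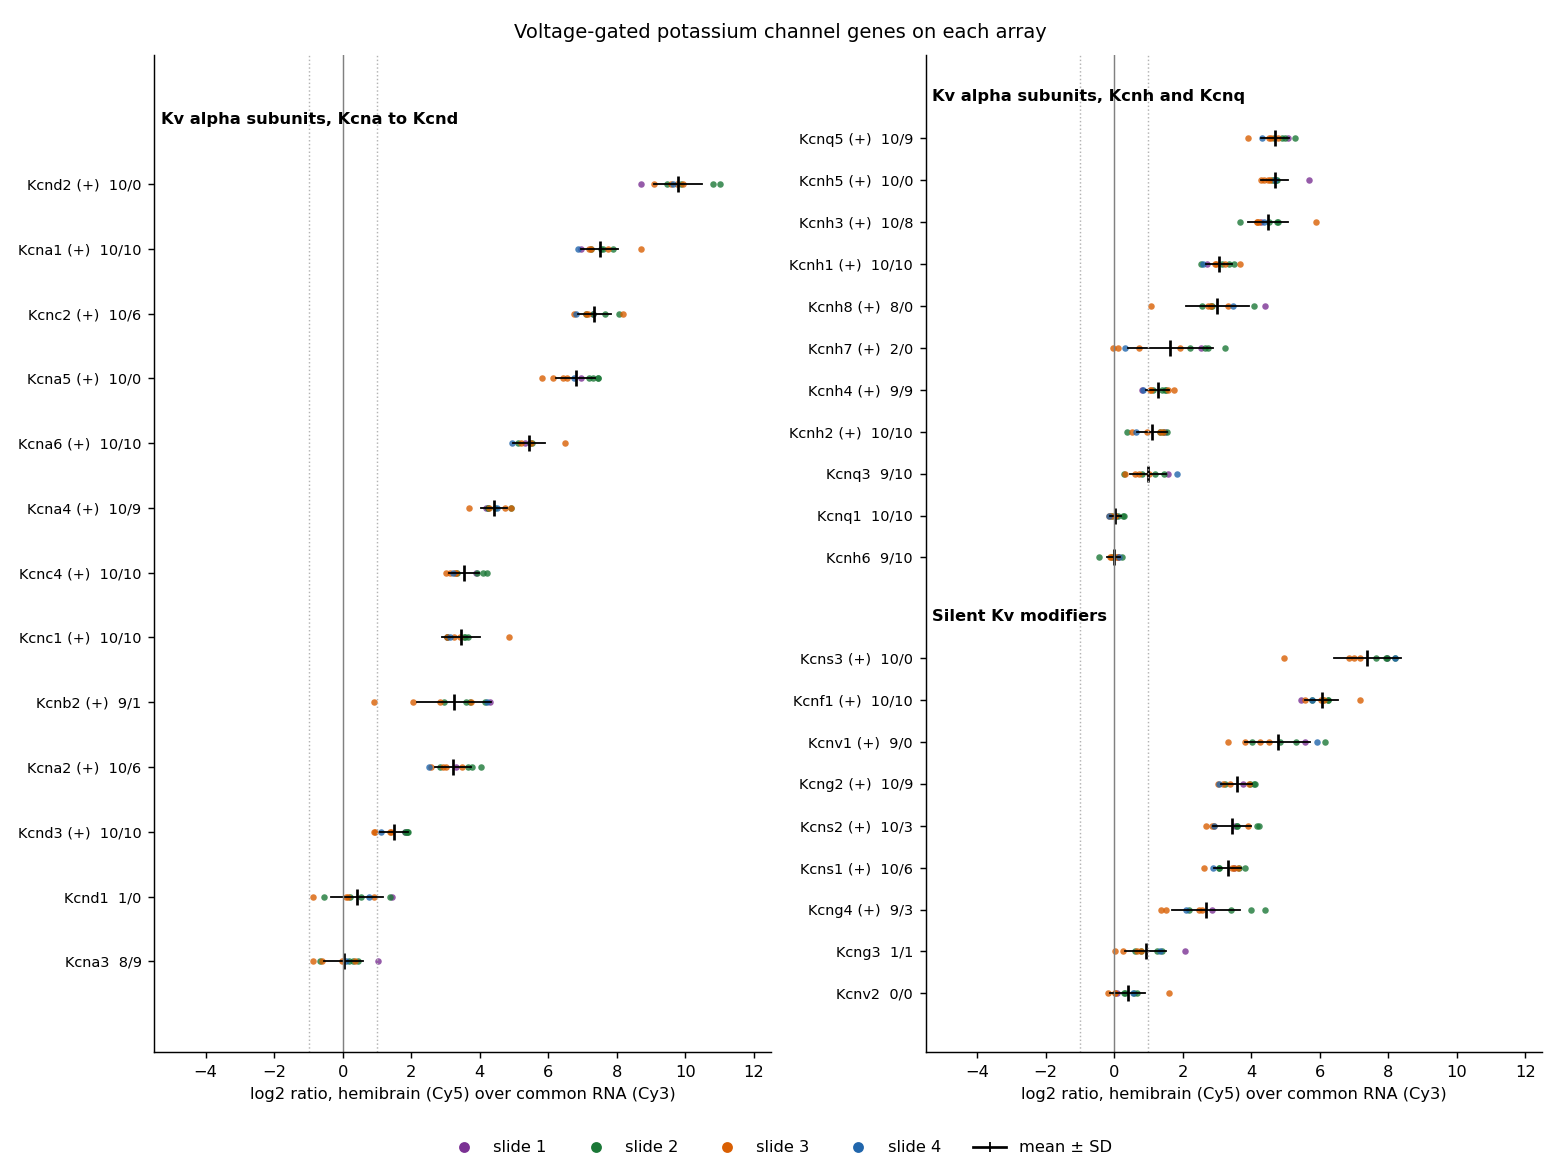
Log2 ratio of hemibrain (Cy-5) over common RNA (Cy-3) for 24 of the 28 voltage-gated alpha subunits and the 9 silent modifiers, 1 row a gene. Points are arrays coloured by slide, black marks give the mean ± SD, dotted lines mark 2-fold, a plus sign marks a gene called higher, and the 2 numbers after a name count the arrays of 10 with the probe detected in Cy-5 and in Cy-3. Most genes lie right of the 2-fold line on every array, from Kcnd2 at the top to Kcnh6, Kcna3 and Kcnq1 at 0.

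Among the voltage-gated alpha subunits, 22 of 28 were higher, none was lower and 6 were not called, and the median ratio was 3.23. Kcnd2, a pore subunit of the transient A-type current of neuronal dendrites, was higher on every array. Its log2 ratio ran from 8.70 on C10-413 over a median of 9.70 to 11.00 on C10-423, with a mean of 9.78 ± 0.70 (SD, n = 10; adjusted p = 3.98e-13). Cy-3 was not detected on any of the 10, so that these ratios carry a substitute value for that dye. Under the main processing the bound for this probe was at least 481-fold higher. It does not hold for the gene as a whole: a second probe, with Cy-3 detected on 7 arrays, gave 6.46, or 88.0-fold. On the log2 scale the Cy-5 signal of Kcnd2 on its brightest probe was between 13.73 and 15.24. The other A-type genes differed from it: Kcnd3 was higher by 1.51 ± 0.41, whereas Kcnd1 had a mean of 0.40 ± 0.76, did not pass the test (adjusted p = 0.106) and was detected in Cy-5 on 1 array.

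The Shaker-type genes (Kcna), whose channels repolarise axons and terminals, were higher in 5 of 6 members. Kcna1 ran from 6.87 on C10-437 over a median of 7.39 to 8.71 on C10-434, with both dyes measured on every array and a mean of 7.49 ± 0.54 (n = 10; adjusted p = 4.66e-13). The array C10-434 was the highest, and without it the mean was 7.36 ± 0.34. Kcna6, with a mean of 5.44 ± 0.47 over the 8 arrays that kept its spot, also had its lowest value on C10-437 and its highest on C10-434 (6.49). Kcna5, also known as a delayed rectifier of heart and vessel muscle, ran from 5.80 to 7.46 around a median of 6.85, was not detected in Cy-3 on any array and was at least 26.5-fold higher in hemibrain. Kcna4 was higher by 4.41 ± 0.37 and Kcna2 by 3.21 ± 0.53. Kcna3, known from lymphocytes and microglia, was the exception: its values lay between -0.86 and 1.03 with a median of 0.14, on both sides of 0 (adjusted p = 0.907).

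Kcnb2, a delayed rectifier of neuronal cell bodies, was higher by 3.25 ± 1.08 and ranged widely, from 0.92 on C10-435 to 4.29 on C10-413. Cy-5 was detected on 9 arrays and Cy-3 on 1, so that the ratio and its range rest mostly on undetected Cy-3 signals. Kcnb2 was no longer called under normexp, nor under a floor of 0.5 with an offset of 50. Among the Shaw-type genes (Kcnc), which serve fast-spiking neurons, Kcnc2 was higher by 7.34 ± 0.49 with Cy-3 detected on 6 arrays, Kcnc4 by 3.54 ± 0.44 and Kcnc1 by 3.46 ± 0.55.

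The ether-a-go-go genes (Kcnh) were higher in 7 of 8 members, but not all of these calls were equally firm. For Kcnh7 the hemibrain signal passed detection on 2 arrays only, and the common RNA never did. Its fitted ratio of 1.64 ± 1.24 thus rests mostly on undetected signals, and no bound is given. Kcnh8, likewise without a detected Cy-3 signal, was at least 3.32-fold higher. Under the normexp correction with an offset of 50, Kcnh2, Kcnh4, Kcnh7 and Kcnh8 were no longer called. Kcnh5 ran from 4.27 to 5.69 around a median of 4.64 and was at least 15.3-fold higher, with no array detected in Cy-3. Kcnh3 was higher by 4.49 ± 0.59 and Kcnh1 by 3.07 ± 0.38. Lower in the order stood Kcnh2, known from the heart's repolarising current, at 1.11 ± 0.44, which was called by a narrow margin and not without the loess correction, and its close relative Kcnh6 had a mean of -0.00 ± 0.19 (adjusted p = 0.963). Of the M-current genes (Kcnq), which restrain repetitive firing, Kcnq5 was higher by 4.70 ± 0.40 with values from 3.90 to 5.27. Kcnq3 (0.98 ± 0.53) and Kcnq1 (0.04 ± 0.16) were not called. For Kcnq1, known from heart and epithelia, both dyes were measured on every array and no value left the range from -0.15 to 0.30.

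Silent modifiers carry no current alone and join the pores of other voltage-gated subunits, and 7 of 9 were higher, with a median ratio of 3.44. Kcns3 ran from 4.97 on C10-434 over a median of 7.79 to 8.20 on C10-423, was not detected in Cy-3 on any array and was at least 38.6-fold higher. Kcnf1 was the only one of the 9 measured in both dyes on every array, and ran from 5.46 over a median of 6.06 to 7.19, a 66.4-fold difference (adjusted p = 1.15e-12). In this pair C10-434 was lowest for the first gene and highest for the second. Kcng2 was higher by 3.58 ± 0.44 and Kcnv1 by 4.77 ± 0.94, with a bound of at least 7.19-fold. Kcng3 (0.92 ± 0.60) and Kcnv2 (0.40 ± 0.51) were not called and were detected in Cy-5 on 1 array and on none.

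**Figure D2:**
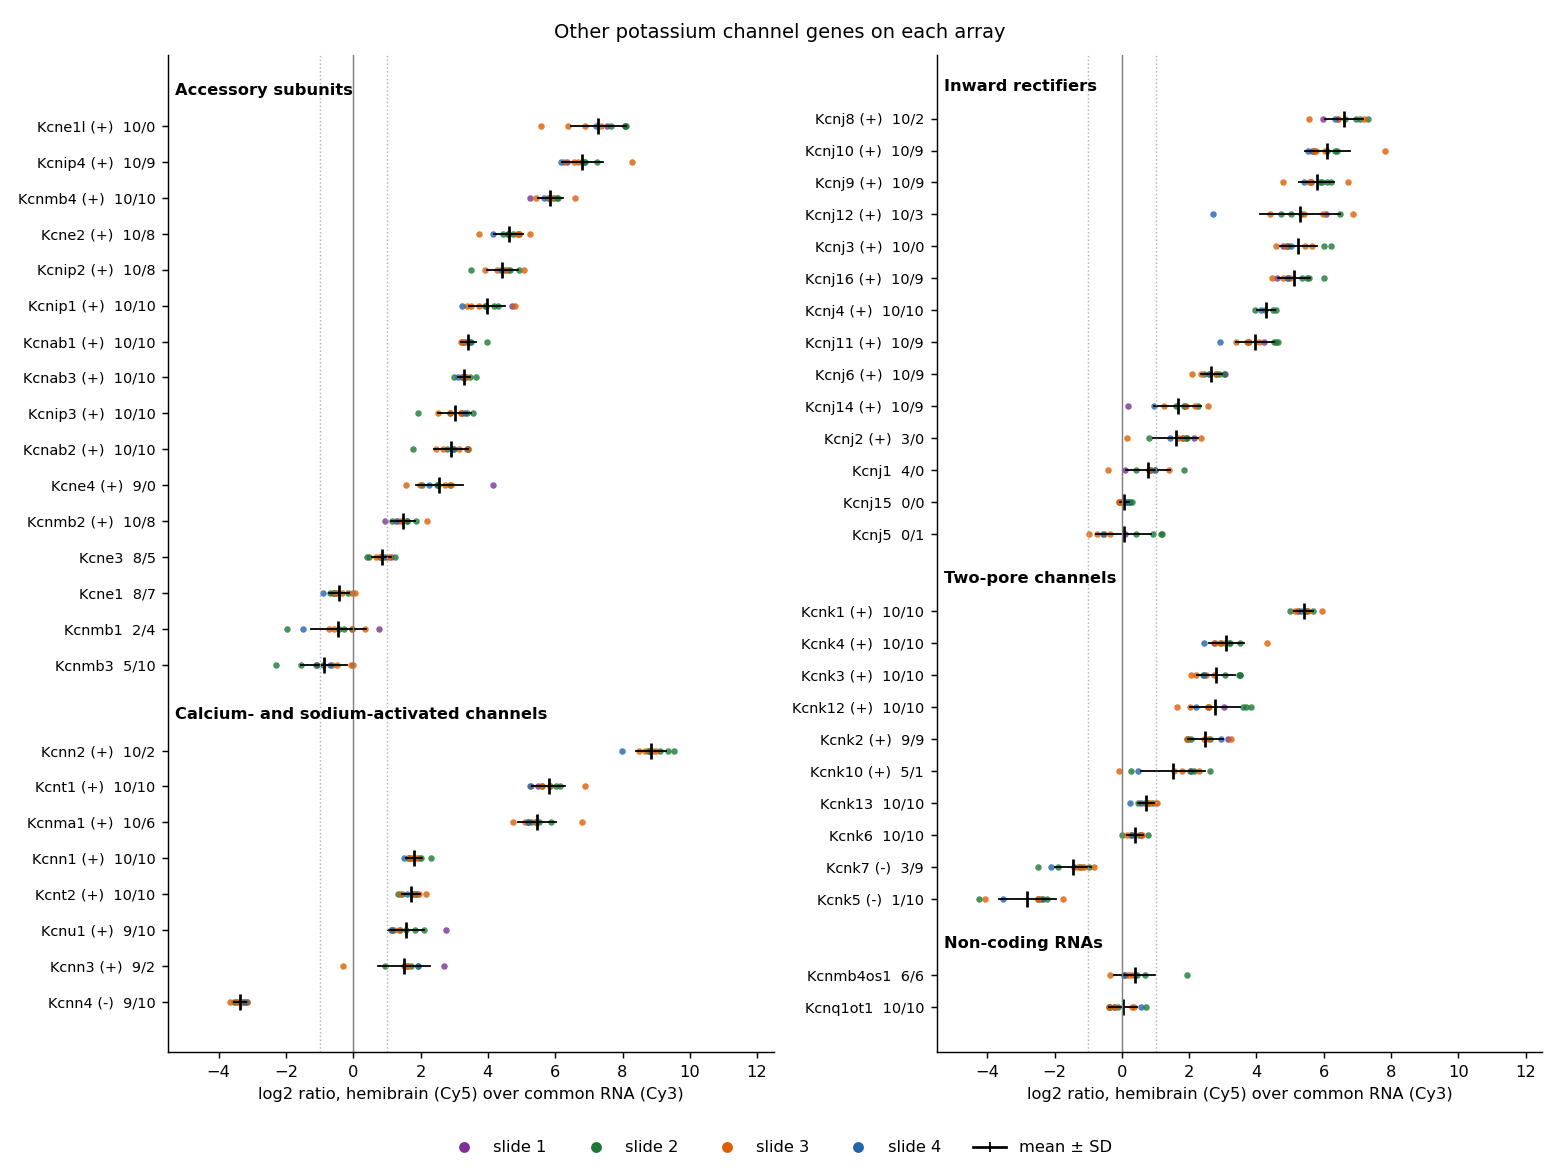
The same plot for the 16 accessory subunits, 8 calcium- and sodium-activated channels, 14 inward rectifiers, 10 two-pore channels and 2 non-coding RNAs, with log2 ratios of hemibrain over common RNA on the horizontal axis. Kcnn4, Kcnk5 and Kcnk7, marked with a minus sign, are the genes called lower, and the 10 values of Kcnn4 lie close together between -3.67 and -3.16.

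Of the accessory subunits, 12 of 16 were higher, none was lower and 4 were not called (median 3.15). All 4 Kcnip genes, whose calcium-binding products attach to Kcnd pores, were higher: Kcnip4 by 6.81 ± 0.61, Kcnip2 by 4.43 ± 0.46, Kcnip1 by 3.97 ± 0.53 and Kcnip3 by 3.01 ± 0.48. Kcnip4 ran from 6.18 on C10-437 to 8.28 on C10-434 around a median of 6.74, and Kcnip1 from 3.24 to 4.81. The Kcnab genes, which encode cytoplasmic partners of Kcna pores, were higher in 3 of 3 members within a narrow band, from 2.90 (Kcnab2) to 3.41 (Kcnab1), and all were measured in both dyes on every array.

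The Kcne and Kcnmb genes did not move as whole families. Kcne1l, a single-pass Kcne subunit, ran from 5.58 on C10-424 over a median of 7.44 to 8.10 on C10-415, was not detected in Cy-3 on any array and was at least 50.2-fold higher. Kcne2, a subunit known from choroid plexus and stomach, was higher by 4.62 ± 0.43, while Kcne3 (0.84 ± 0.27) and Kcne1 (-0.43 ± 0.30) were under the 2-fold limit. Kcnmb4, the neuronal beta subunit of the large-conductance calcium-activated channel, ran from 5.26 to 6.60 around a median of 5.85, a 57.8-fold difference with both dyes measured on every array. Kcnmb2 was higher by 1.48 ± 0.36. Kcnmb1, known as the smooth muscle beta subunit, had a mean of -0.44 ± 0.82. Kcnmb3 had a mean of -0.88 ± 0.68 (adjusted p = 0.00121), under the 2-fold limit, with all 10 values below 0, from -2.29 on C10-417 to -0.02 on C10-435. Cy-5 was detected on 5 arrays for this gene. Kcnmb3 passed the limit with a mean of -1.11 without the loess correction, and with -1.46 on the arrays of slide 2 alone. On slide 3 alone its mean was -0.30, and the alternative nearest to 0 gave -0.19.

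Of the calcium- and sodium-activated channels, 7 of 8 were higher and Kcnn4 was lower, with a median ratio of 1.76. Kcnn2, a small-conductance calcium-activated channel, ran from 7.97 over a median of 8.85 to 9.53, with Cy-3 detected on 2 arrays only. Kcnt1, the sodium-activated channel of neurons, was higher by 5.80 ± 0.48 (adjusted p = 1.58e-12), and Kcnma1, the pore of the large-conductance channel, by 5.45 ± 0.56. The next 4 genes lay close together, namely Kcnn1 (1.81 ± 0.24), Kcnt2 (1.71 ± 0.27), Kcnu1 (1.57 ± 0.53), known from sperm, and Kcnn3 (1.52 ± 0.78), and the spreads of these neighbours overlapped.

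Kcnn4, the intermediate-conductance channel of blood and epithelial cells, stood opposite to its relatives. Its 10 values were -3.27, -3.16, -3.54, -3.49, -3.37, -3.17, -3.45, -3.27, -3.67 and -3.22, in the order C10-413, C10-415, C10-416, C10-417, C10-423, C10-424, C10-425, C10-434, C10-435 and C10-437. The mean was -3.36 ± 0.17, so that hemibrain was 10.3-fold lower (adjusted p = 3.46e-13), with Cy-5 detected on 9 arrays. No array stood apart, C10-434 included. The blood markers measured in the same RNA, Hba-a1 and Alas2, were higher in hemibrain by 4.29 each.

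Of the inward rectifiers, 11 of 14 were higher, none was lower and 3 were not called, and their median of 4.12 was the highest of the groups. Kcnj10, the astrocyte channel that clears extracellular potassium, ran from 5.53 on C10-437 over a median of 5.90 to 7.81 on C10-434, with a mean of 6.10 ± 0.67. Kcnj16, its partner subunit, was higher by 5.12 ± 0.48. Of the 4 G-protein-gated channels, which slow neurons and heart cells, 3 were higher. Kcnj9 had a mean of 5.78 ± 0.52, Kcnj3 ran from 4.57 to 6.21 and was at least 13.4-fold higher, and Kcnj6 had a mean of 2.66 ± 0.31. The other member of this group, Kcnj5, known from the heart, had a mean of 0.06 ± 0.82 and was not detected in Cy-5 on any array.

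The pores of the ATP-sensitive channel were both higher, Kcnj8, known from vessel-associated cells, by 6.60 ± 0.56 with Cy-3 detected on 2 arrays, and Kcnj11, known from neurons and pancreas, by 3.96 ± 0.56. Among the strong rectifiers, Kcnj12 was higher by 5.30 ± 1.20, and spread from 2.70 on C10-437 to 6.88 on C10-425, with Cy-3 detected on 3 arrays. Kcnj4 was higher by 4.29 ± 0.26 over the 5 arrays whose spot had no outlier flag. Kcnj14 was higher by 1.66 ± 0.70 and Kcnj2 by 1.59 ± 0.66. For Kcnj2, Cy-5 was detected on 3 arrays, so that its bound of 1.105-fold rests mostly on undetected signals and is not firm. Neither of these genes was called under normexp or under the floor. Kcnj1, known from kidney, and Kcnj15 were not called, at 0.78 ± 0.64 and 0.08 ± 0.15, and Kcnj15 was detected in neither dye.

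Of the two-pore channels, 6 of 10 were higher, 2 were lower and 2 were not called. Kcnk1 ran from 4.99 over a median of 5.40 to 5.96, a 42.5-fold difference that varied little between arrays (SD 0.28, n = 10; adjusted p = 1.22e-13). The 3 genes of the channels opened by polyunsaturated fatty acids were all higher: Kcnk4 by 3.11 ± 0.52, Kcnk2 by 2.48 ± 0.51 and Kcnk10 by 1.51 ± 0.95, with Cy-5 detected on 10, 9 and 5 arrays. With the normexp correction named below, Kcnk2 and Kcnk10 were no longer called, and Kcnk10 was not called under a floor either. Kcnk10 spread from -0.09 on C10-434 to 2.62 on C10-416. The acid-sensitive Kcnk3 was higher by 2.79 ± 0.56, and Kcnk12 by 2.77 ± 0.74. Its relative Kcnk13 (0.72 ± 0.24) and Kcnk6 (0.40 ± 0.24) were measured in both dyes on every array and stayed under the 2-fold limit.

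Kcnk5, an acid- and volume-sensitive channel known from kidney, was lower in hemibrain. Its values were -2.34, -2.21, -2.50, -2.42, -4.25, -2.50, -2.49, -1.76, -4.07 and -3.53, in the array order given for Kcnn4. All were below 0, but Cy-5 was detected on 1 array while Cy-3 was on all 10, so that the size of the difference and the order of the arrays are not known. The fitted mean was -2.81 ± 0.84 (adjusted p = 2.25e-07). Kcnk7, whose product forms no current by itself, was 2.76-fold lower, with values from -2.50 to -0.83 and Cy-5 detected on 3 arrays. With a normexp background correction and an offset of 50, Kcnn4 was the only one of these 3 genes that stayed past the limit.

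The 2 non-coding RNAs were not called. Kcnq1ot1, the imprinted transcript from within the Kcnq1 gene, had a mean of 0.02 ± 0.42 on its brightest probe and Kcnmb4os1 of 0.38 ± 0.61. In the RefSeq gene table some members are direct neighbours on their chromosome. Kcna5, Kcna1 and Kcna6 follow each other on chromosome 6 and were all higher, and so were Kcnj9 and Kcnj10 on chromosome 1 and Kcnj16 and Kcnj2 on chromosome 11. Other neighbours differed: Kcna3 was not called beside Kcna2 on chromosome 3, Kcnmb1 was not called beside Kcnip1 on chromosome 11, and Kcnj15 was not called beside Kcnj6 on chromosome 16.

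Proteins that bind or sit with potassium channels were described as a list of 30 genes, of which 23 were higher, none was lower and 7 were not called, with a median ratio of 3.42. With no fold limit, 2 of them were lower at an adjusted p under 0.05 in limma. The partners of Kcnd pores were higher, Dpp10 by 5.24 ± 0.67 and Dpp6 by 4.31 ± 0.38, beside the Kcnip genes above. Dpp10 differed between slides 2 and 3, with means of 5.99 and 4.68 (adjusted p = 0.0428 in limma). On slide 3 its log2 Cy-3 signal differed by 1.18 and its Cy-5 signal by -0.13. Cntnap2, which holds Kcna channels beside the node of Ranvier, was higher by 5.41 ± 0.29, and Lgi1, a secreted binder of the Kcna complex, by 6.65 ± 0.25. The receptor subunit for Lgi1, Adam22, was detected in neither dye. Abcc8, the sulphonylurea receptor that pairs with Kcnj11, was higher by 3.42 ± 0.25, and Abcc9, which pairs with Kcnj8 and was not detected in Cy-3 on any array, was at least 4.12-fold higher. Akap5, an anchoring protein of the M-current channel, was higher by 7.11 ± 0.35, and Akap9 by 0.72 ± 0.11, under the 2-fold limit. Kctd8, an auxiliary subunit of the GABA-B receptor that opens Kcnj3-type channels, was at least 25.1-fold higher.

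**Figure D3:**
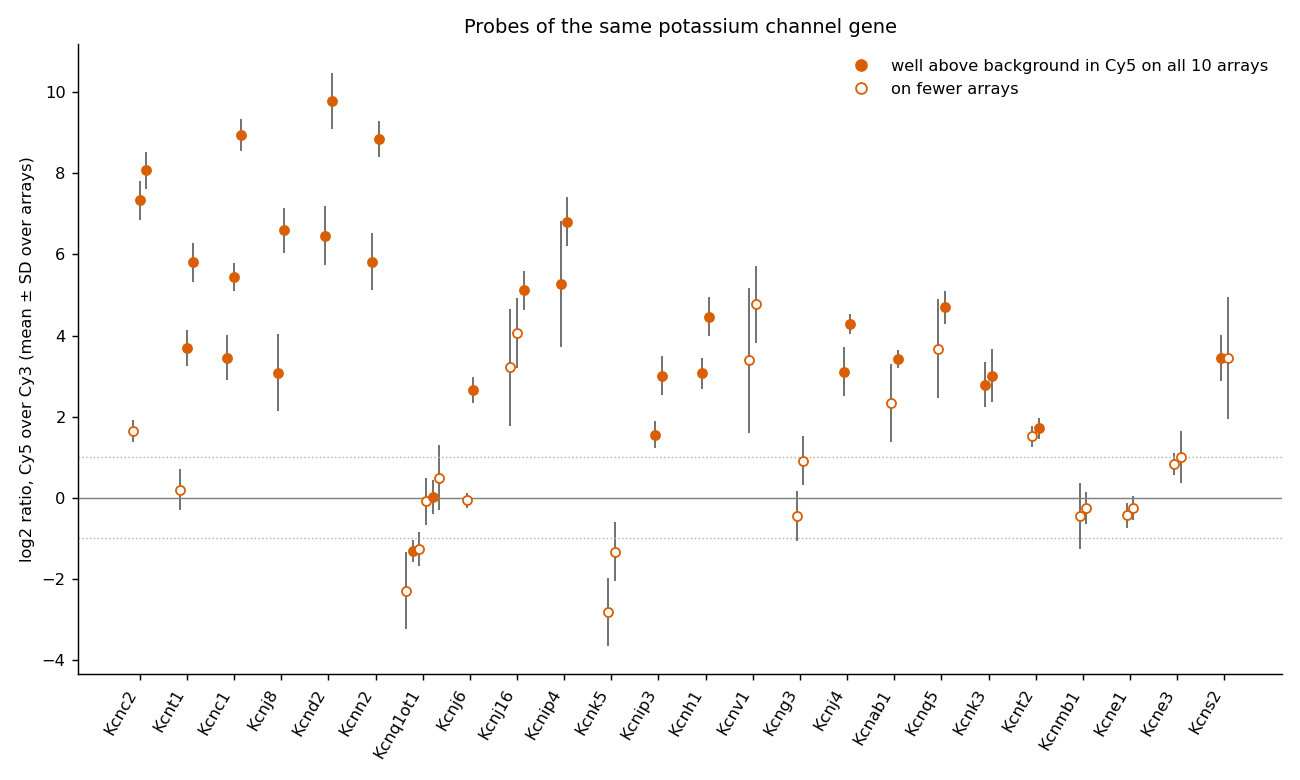
Mean log2 ratio of hemibrain over common RNA for every probe of 24 of the 26 genes with more than 1 probe, with SD over arrays as bars, ordered by the distance between the highest and the lowest probe. Filled points were detected in Cy-5 on all 10 arrays, open points on fewer. Probes of Kcnc2, Kcnt1 and Kcnc1 lie more than 5 log2 units apart, those of Kcns2 at the same height.

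For 26 of the 87 genes more than 1 probe was present, and the probes of 23 of these genes gave the same call. The median distance between the highest and the lowest probe of a gene was 1.42 log2 units, and in 9 genes it was over 2. The 3 probes of Kcnc1, all detected in Cy-5 on every array, had means of 3.46, 5.44 and 8.95, and the last was not detected in Cy-3 on any array. For Kcnd2 the second probe gave 6.46 beside 9.78, for Kcnn2 5.82 beside 8.86 and for Kcnj8 3.08 beside 6.60. All these probes pointed the same way and differed in the size of the ratio. In 3 genes the call differed. A probe of Kcnt1 gave 0.21 beside 3.69 and 5.80, a probe of Kcnj6 that was detected in neither dye gave -0.06 beside 2.66, and of the 6 probes of Kcnq1ot1 3 were lower (-2.29, -1.31 and -1.26) and 3 were not called. None of the 26 genes had probes on opposite sides that were each at least 1 from 0.

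**Figure D4:**
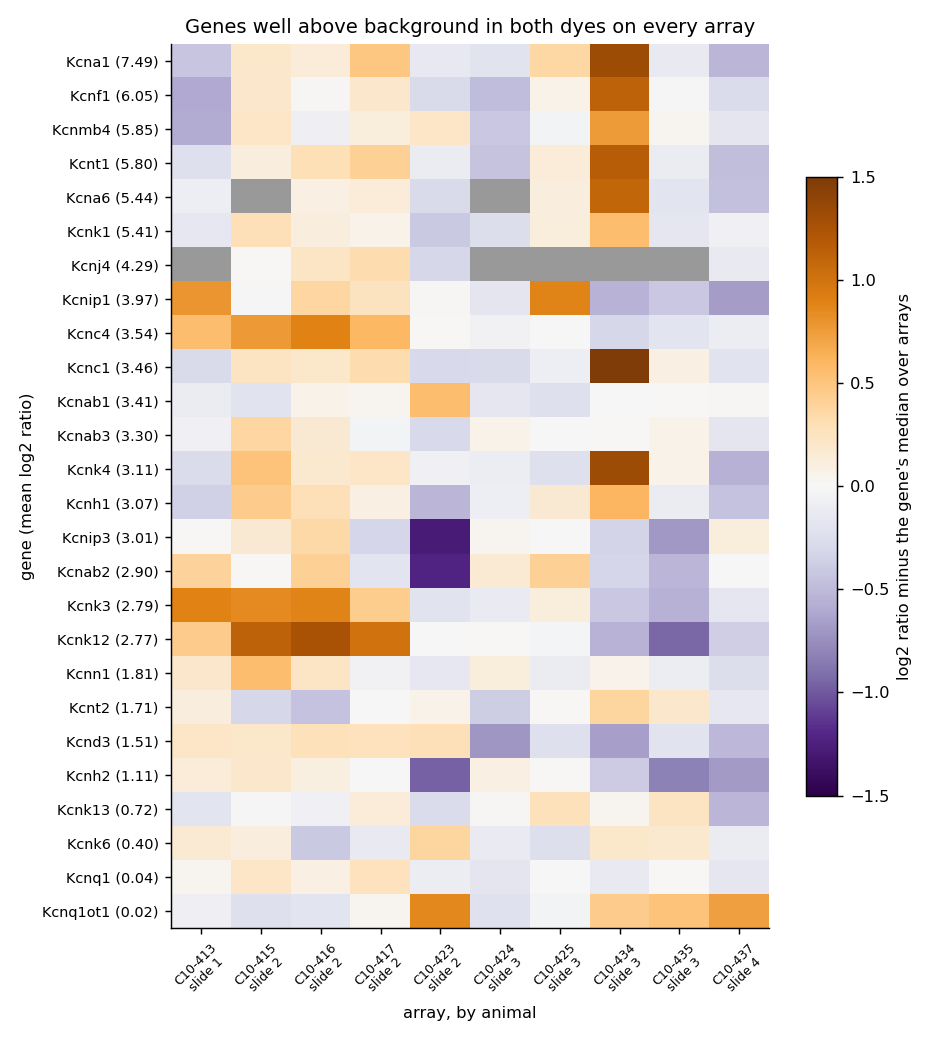
Deviation of each array's log2 ratio from the gene's median over arrays, for 26 of the 28 genes detected in both dyes on every array, ordered by their mean ratio (in brackets); grey cells are spots left out for an outlier flag. The column of C10-434 is the highest for most genes with a ratio over 4, C10-423 is low for Kcnip3, Kcnab2 and Kcnh2, and C10-413, C10-415, C10-416 and C10-417 are high for Kcnk12, Kcnk3 and Kcnc4.

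Potassium channel genes varied more between arrays than genes did in general, with a median SD of 0.520 against 0.299 over all genes, and of 0.432 against 0.247 where both dyes were measured on every array. Without C10-434 the medians were 0.451 and 0.283, and 0.311 and 0.237 where both dyes were measured on every array. The larger spread was not particular to Kcn genes. Over all 10 arrays and in both dyes, the median SD was 0.536 for neuron and 0.426 for oligodendrocyte markers. It was 0.339 for endothelial, 0.297 for microglia and 0.274 for astrocyte markers. On C10-434, Cy-5 detected 56 Kcn genes (71 to 80 elsewhere) and Cy-3 detected 36 (54 to 64 elsewhere). Among the 28 genes measured in both dyes, C10-434 was the highest array for 11, against 22.0% of all 10533 such genes with a value on every array. Of the 8 Kcn genes of this set with a mean ratio over 4, 7 had a value on C10-434, and their median deviation was 1.098, against 0.59 for all 423 such genes. On its brightest probe, Kcnc1 (mean 3.46, not among these 8) was also highest on C10-434, with 4.86 against 3.04 to 3.66. Another Kcnc1 probe (mean 8.95), not detected in Cy-3 on any array, was lowest on C10-434, at 8.16. The array C10-423 was the lowest for 9 of the 28 genes, against 21.0% of all, and stood below the others for Kcnip3 (1.93), Kcnab2 (1.76) and Kcnh2 (0.37).

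The 5 genes of this set with the largest SD were Kcna1, Kcnc1, Kcnip1, Kcnk3 and Kcnk12. Kcnk12, which encodes a two-pore channel inhibited by halothane, gave 3.03 on C10-413, 3.70, 3.83, 3.59 and 2.57 on C10-415, C10-416, C10-417 and C10-423, 2.59, 2.55, 2.03 and 1.64 on C10-424, C10-425, C10-434 and C10-435, and 2.21 on C10-437. The first 4 arrays of this list were thus above the other 6. The same 4 arrays were the highest for Kcnk3, at 3.06 to 3.51 against 2.06 to 2.74, and for Kcnc4, at 3.87 to 4.21 against 3.01 to 3.33. For Kcnip1 the order was another, with C10-425 (4.81) and C10-413 (4.71) on top. These 4 arrays share no label that the other arrays lack, and they were not tested as a group.

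**Figure D5:**
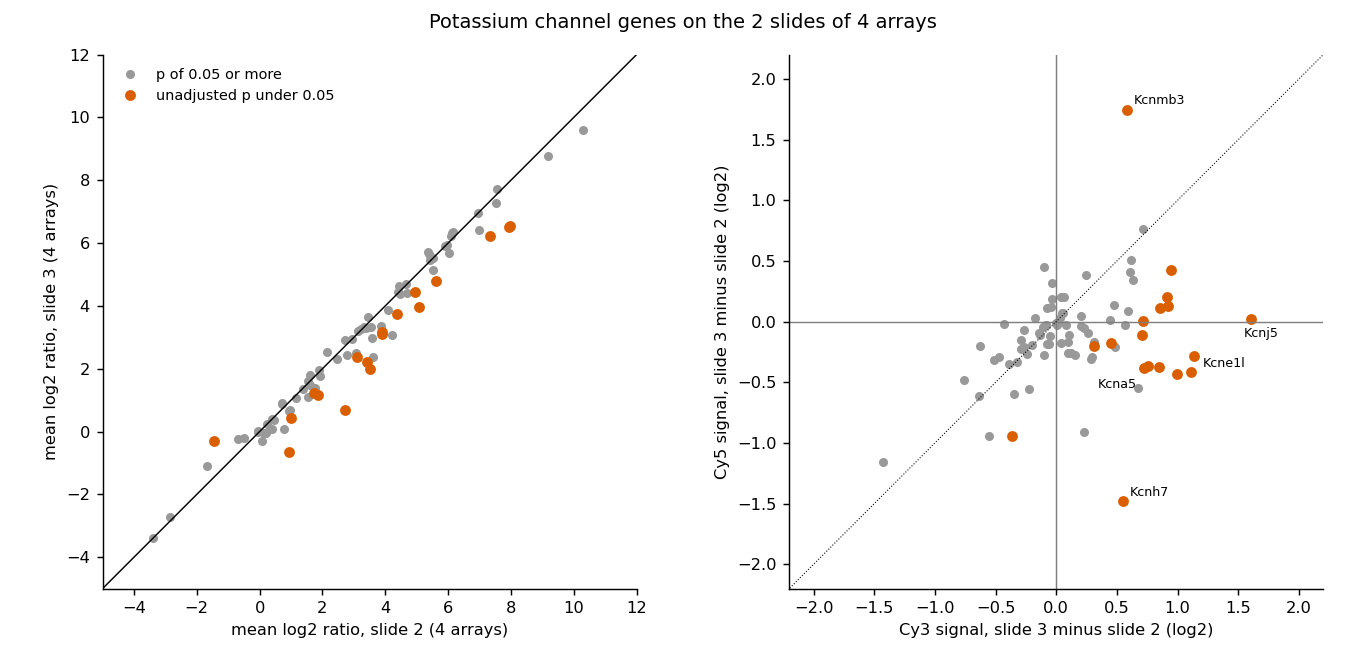
Left, mean log2 ratio of each Kcn gene on the 4 arrays of slide 3 against the 4 arrays of slide 2, with the line of equality. Right, the difference between these slides in the Cy-5 signal against that in the Cy-3 signal (log2, slide 3 minus slide 2). Orange points had an unadjusted p under 0.05 in limma; 17 of these 18 genes lie below the line on the left, and 17 lie right of 0 on the right.

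The arrays came from 4 slides, of which slides 2 and 3 carried 4 arrays each and the other two 1 each, and animals as well as slides differ in this comparison, so that the 2 cannot be told apart. No Kcn probe of 120 differed between slides 2 and 3 at an adjusted p under 0.05 in limma (smallest 0.0526, a probe of Kcnj16), against 0.0705% of all 41122 probes. At an unadjusted p under 0.05, 27 of the 120 (22.5%) differed, against 9.82% of all probes; 24 of them (20.0%) were lower on slide 3, against 5.55% of all. On the brightest probes, 18 genes were among them. Of these, Kcnk12 (3.42 on slide 2, 2.202 on slide 3), Kcnk3 (3.11 and 2.37), Kcnd3 (1.87 and 1.16) and Kcnc4 (3.89 and 3.18) were measured in both dyes on every array, and others, such as Kcns3 (7.93 and 6.50) and Kcna5 (7.35 and 6.22), were not detected in Cy-3. Kcnmb3 went the other way, from -1.46 to -0.30 (adjusted p = 0.209).

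Of the 18 genes with an unadjusted p under 0.05, 17 had more Cy-3 signal on slide 3, against 51 of all 86 Kcn genes compared, and 11 had less Cy-5 signal, against 58 of the 86. A low ratio on slide 3 chose 17 of the 18 and favours a high Cy-3 signal there, so these counts are a description. Kcnk12 differed by 0.85 in Cy-3 and by -0.37 in Cy-5, and Kcnk3 by 0.86 and 0.11, all log2 signals and slide 3 minus slide 2. With Cy-5 alone 13 Kcn probes (10.8%) had an unadjusted p under 0.05 in limma, against 14.3% of all probes. With Cy-3 alone 37 (30.8%) did, against 34.2%. With both directions counted, neither share was above the background. In Cy-5, 8 (6.67%) were lower on slide 3, against 6.19% of all probes. In Cy-3 the directions differed from the background: 7 (5.83%) were lower on slide 3, against 19.8% of all probes, and 30 were higher. Under a normexp correction with an offset of 50 the count for the ratio was 0, against 2.85% of all probes, and under a floor with the same offset it was 3 (2.50%), against 7.58%, so that the count depended on this setting.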

How the data were processed

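Two-colour Agilent arrays of 10 hemibrains were used. Per the file headers, the authors' scanner software (Feature Extraction 10.10.1.1) gave for each spot a processed intensity in Cy-3 and Cy-5, already background-subtracted and dye-normalised, an intensity over background, a log10 ratio and flags. The authors also deposited a table of log2 ratios, which followed the software's ratio on every array and was used as an alternative. None of the processed intensities is a count, and the number of arrays limits the precision.

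From these files log2 of the processed Cy-5 over Cy-3 intensity was computed, spots with outlier flags were left out, loess (span 0.3) was applied within each array, spots of a probe were averaged and all 41174 probes were fitted in limma 3.58.1 (R 4.3.3). Genes were named by matching the accession of each probe in the files to a RefSeq table (build GRCm38.p6). The array design is of another build, so no array coordinates are given. A gene was its brightest probe. The normexp alternative used median signals, because the files held no mean foreground. Scripts were tested on simulated data.

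The members, their role groups, the 30 partner genes and the markers (of which 1 had no probe) were chosen with earlier results of these data known. The 46 genes named by rule were, per group, the 3 highest and 3 lowest in ratio among those in both dyes on at least 8 arrays, genes in Cy-5 on all arrays and Cy-3 on none, the 5 with the largest SD, and 8 genes that the study discusses; further members were named after their values were seen. Alternatives were other background, normalisation, probe and fold settings, slides, and arrays left out. The labels name 1 animal per array, so that p-values cover the spread between these animals and their hybridisations together. A few items are not reported here; they stay in the counts and medians.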

Additional observations from a re-analysis of the deposited data

Results flagged for a closer look

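In 11 of 51 measures over the 10 arrays, 1 array lay further from the rest than Dixon's test allows at the 95% level; chance alone gives about 1 in 20, or 2.55 of 51. Of these, 7 concerned C10-434, 2 C10-413, 1 C10-423 and 1 C10-416, and causes were not tested.

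On C10-434, Cy-5 detected 56 Kcn genes (71 to 80 elsewhere) and Cy-3 detected 36 (54 to 64). Its log2 ratio of hemibrain over common RNA was above the rest for Kcnc1 (4.86, others 3.04 to 3.66), Kcnf1 (7.19, others 5.46 to 6.25), Kcnip4 (8.28, others 6.18 to 7.25) and Kcnj10 (7.81, others 5.53 to 6.39), and below the rest for Kcns3 (4.97, others 6.86 to 8.20).

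On C10-413 the median log2 ratio of the calcium- and sodium-activated channels was 2.72 (others 1.71 to 1.98) and that of Kcnh5 was 5.69 (others 4.27 to 4.74). On C10-423 the median of the accessory subunits was 2.51 (others 3.05 to 3.47). On C10-416 Kcnh6 stood at -0.43, with the other arrays from -0.11 to 0.24.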

How the results depend on the processing

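The count of 65 Kcn genes higher in hemibrain fell to 42 under a normexp correction with an offset of 50, and was 24 of the 28 genes tested when only probes detected (well above the local background) in both dyes on every array were kept, which tests fewer genes. The 3 genes lower became 1 under normexp, 0 under that filter and 5 with no fold limit. Partner genes were 15 higher under the filter and 2 lower with no fold limit. In the other alternatives run, including the authors' table, the slide as a random block, each slide alone and leaving out C10-434 or C10-437, between 51 and 73 Kcn genes were higher. Shares of all genes were not counted anew under these alternatives, so these counts have no background beside them. For the 46 genes named by rule, 445 of 460 values kept their direction and their side of the limit, 11 fell under it, mostly under normexp, and 4 passed it, all for Kcnmb3. Under normexp Kcnd2 was 5.63, Kcns3 2.47, Kcne1l 2.33, Kcna5 1.97, Kcnj3 1.32 and Kcnh5 1.30. These log2 ratios lie below the bounds given above for the same genes, which hold for the main processing only.

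Between slides 2 and 3, Kcn probes at an adjusted p under 0.05 in limma were 0, but 1 (Kcna5) among probes in Cy-5 on all 8 arrays, 4 with Cy-5 alone (3.33%, against 3.81% of all probes) and 24 with Cy-3 alone (20.0% against 18.0%), and 0 to 1 with 1 array left out (1, Kcnj16, without C10-415). At an unadjusted p the 27 became 0 under normexp (2.85% of all probes), 3 (2.50%, against 7.58%) under a floor of 0.5 with the same offset, 14 of 68 (20.6%, against 5.29%) under the filter, 13 with Cy-5 alone (10.8% against 14.3%) and 17 to 30 with 1 array left out, 17 being without C10-417. These single-dye counts and the unadjusted counts were added after the data were seen. The median SD of Kcn genes, 0.520, was 0.2998 under the floor, where that of all genes was 0.227. Low signal in Cy-3 limits most of the highest ratios. No paired analysis was possible because the arrays form 1 group. The cause of these changes was not tested.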
